A study of Mus musculus with 23 samples.

Results

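Melanomas that had grown in the lung were set against primary melanomas, in mice whose tumours were induced by ultraviolet light according to the series title. The lung group is 2 bulk RNA-seq libraries, and the primary group is the 6 primary melanomas with the least keratinocyte RNA, so that 8 of the 23 libraries of the series entered the comparison. Both lung libraries came from HPN animals, labelled Nme1+/- / Nme2+/-, numbered 3 and 4, and are called lung 3 and lung 4 here. The keratinocyte-poor primaries were HPN-2, HPN-5 and HPN-7, of the same genotype as the lungs, and HP-5, HP-7 and HP-9, labelled Nme1wt / Nme2wt. The labels do not spell out HP or HPN, nor the other alleles the animals carry. Nme1 and Nme2 encode nucleoside diphosphate kinases, of which NME1 is known as a metastasis suppressor. The other 15 libraries are 8 primaries richer in keratinocyte RNA and 7 lymph node metastases, which serve below only to place single genes and the chromosome 1 shift. The primaries of the lungs' own animal numbers, HPN-3 and HPN-4, are among the 8 richer ones, so no primary in the comparison shares an animal number with a lung. For the 3 HP primaries, genotype and site cannot be told apart. That the libraries came from separate animals is read from the title numbers alone.

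The 6 primaries were chosen by their keratinocyte values: they were those with a mean log2 CPM of keratinocyte genes below 2, where CPM is the depth-scaled read count of a gene, with each library's gene counts brought to the same total. The richest primary inside that limit was HPN-2 at 1.53 and the poorest outside it was HPN-6 at 5.31, while lung 3 stood at 1.56 and lung 4 at 0.80. Keratinocyte and hair follicle genes therefore chose the primaries and are described without a test. Summed over 17 keratinocyte genes, the level was 67.0 CPM in lung 3 and 40.7 CPM in lung 4, against 7.16, 26.7 and 74.2 CPM in the 6 primaries. Wherever 3 values of these primaries stand together, they are the lowest, the median and the highest. The sums of both lungs lay within the range of the primaries, but by member lung 3 lay above the highest primary in 10 of the 17 genes, lung 4 in 4 and both in 3, and 16 of 17 had a positive log2 difference. Krt14, a keratin of the basal epidermis, had 9.86 CPM in lung 3 and 6.45 CPM in lung 4, against 0.355, 4.57 and 23.3 CPM in the primaries. The 12 hair follicle genes summed to 6.66 CPM in lung 3 and 22.4 CPM in lung 4, against 1.39, 3.07 and 90.2 CPM in the primaries, the highest being HPN-2.

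As background, melanoma cells carry the pigment programme of the melanocyte, in which the transcription factor MITF drives Tyr, Tyrp1, Dct and Pmel. The normal lung holds alveolar type 2 cells, which make surfactant proteins, flat alveolar type 1 cells for gas exchange, secretory club cells and ciliated cells of the airways, resident alveolar macrophages and a dense capillary bed, all wrapped in mesothelium. A piece of lung with a metastasis can hold any of these next to the tumour, and in bulk RNA fewer cells of a type and less RNA per cell cannot be told apart. The label of melanoma held in both lungs: Dct, a melanin synthesis enzyme, had 18900 CPM in lung 3 and 12600 CPM in lung 4, against 13100, 20200 and 25100 CPM in the primaries. Sox10, the melanocyte lineage factor, had 570 CPM in lung 3 and 508 CPM in lung 4, against 470, 748 and 864 CPM. Both lungs lay within or just below the primaries on these genes.

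Of the Nme genes that define the genotypes, Nme1 lay near the primaries of the lungs' own genotype and Nme2 lay below all primaries. Nme1 had 10.7 CPM in lung 3 and 9.5 CPM in lung 4, against 11, 10.4 and 12.1 CPM in HPN-2, HPN-5 and HPN-7, of the lungs' genotype, and 28.4, 22.8 and 17.7 CPM in HP-5, HP-7 and HP-9. The lungs lay near the 3 HPN primaries and below every HP primary. Nme2 had 0.0925 CPM in lung 3 and 0.0693 CPM in lung 4, against 0.187, 0.365 and 0.834 CPM, below the primaries in both lungs but near the limit of detection. Nme7, a centrosomal member on chromosome 1, had 19.1 CPM in lung 3 and 16.1 CPM in lung 4, against 10.5, 12.2 and 13.5 CPM. Cdkn2a, the locus of the p16 and ARF tumour suppressors, had 38.6 CPM in lung 3 and 25.3 CPM in lung 4, against 45.2, 47.3 and 70.5 CPM.

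Lung 4 alone held a large set of lung tissue genes, and some genes placed both lungs outside the primaries. Of 16862 genes tested, 782 (4.64%) were higher in both lungs than in any of the 6 primaries. In turn 593 (3.52%) were lower in both than in any primary. Outside chromosome 1 the shares were 3.74% above and 3.75% below. Any 2 of 8 libraries lie outside the other 6 on some genes by order alone, so a count alone shows no shared difference. List counts below are to be read beside these shares. Taken singly, lung 3 lay above the highest primary in 2187 genes (13%) and below the lowest in 2003 (11.9%), while lung 4 lay above in 3436 (20.4%) and below in 2938 (17.4%). No gene (0%) passed edgeR's quasi-likelihood test at a Benjamini-Hochberg adjusted p of 0.05. The smallest adjusted p was 0.0629, and 1346 genes (7.98%) had an unadjusted p under 0.05 with a higher level in the lungs, against 298 (1.77%) with a lower level. DESeq2, on 15103 genes, called 475 higher (3.15%) and 54 lower (0.358%), and limma voom called 2 higher, Rbm20 and Slc10a6, and 0 lower. Without lung 3 edgeR called 1228 genes higher and 161 lower, whereas without lung 4 it called 1 higher, Gabrd, and 0 lower. In data simulated from these libraries, the same test called 44.6% of genes with a true log2 change of 2. For a true change of 1 it called 3.03%. The simulation gave both lungs 1 mean and the spread of the primaries alone, whereas the real lungs differed greatly. These shares therefore do not tell how many such changes the real fit would call.

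Depth lay at 31213391 gene counts in lung 3 and 28543393 in lung 4, against 28854232 to 84902927 in the 6 primaries. Reads aligned outside genes were 39.8% of uniquely aligned reads in lung 3 and 30.5% in lung 4, against 25.3% to 44.5% in the primaries. The median gene differed between the groups by a log2 of -0.02. Over 13527 genes, lung 4 held 851 at over 4 times the mean of the primaries and lung 3 held 59, while a single primary held 24 to 112. Below 4 times under that mean, lung 4 had 67 genes and lung 3 had 66, against 14 to 105 in a primary. Lung 4 thus stood apart from all other libraries of the comparison, and each result below is given for lung 3 and lung 4 separately.

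Alveolar type 2 cell genes were high in lung 4 and close to absent in lung 3. Sftpc, a surfactant protein made by type 2 cells alone in the adult lung, had 4690 CPM in lung 4 and 0.185 CPM, or 6 reads, in lung 3, against at most 6.65 CPM, in HP-9, among the primaries. Sftpa1 had 974 CPM in lung 4 and 0.0616 CPM in lung 3, with a highest primary of 1.48 CPM, again HP-9. Sftpb, Sftpd and Lamp3 were at 0 in lung 3, where a count of 0 allows up to 0.0925 CPM by counting error alone, and at 885, 209 and 118 CPM in lung 4. All 16 of the tested type 2 genes lay above the highest primary in lung 4, but 1 of 16 did so in both lungs: Ctsh, a lysosomal protease that processes surfactant protein but is not confined to these cells, at 22.7 CPM in lung 3 and 167 CPM in lung 4 against 10.9, 14.2 and 22.6 CPM. The list summed to 520 CPM in lung 3 and 12330 CPM in lung 4, against 371 to 832 CPM in the primaries, of which Lyz2, a gene that macrophages share, made up 113 to 564 CPM. No member passed the test, and the smallest adjusted p-values by edgeR were 0.0808 for Chil1, at 0.308 CPM in lung 3 and 168 CPM in lung 4, and 0.0808 for Muc1, at 0.616 and 41.3 CPM.

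**Figure D1:**
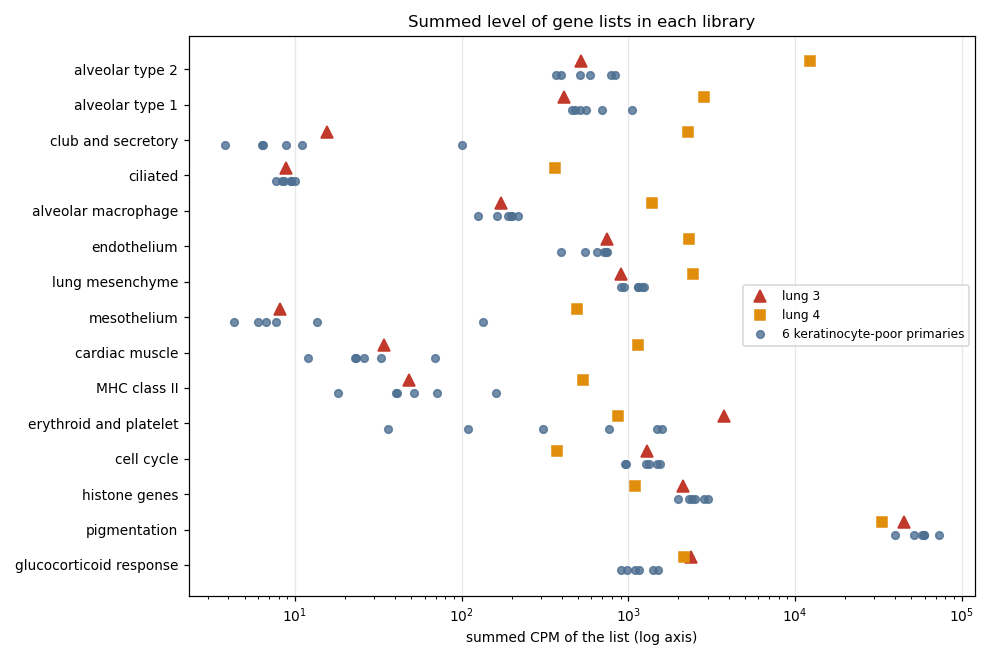
Summed level of the genes of each marker list on a log10 axis of CPM, with lung 3 and lung 4 drawn apart from the 6 primaries. Lung 4 lies far to the right of all others for the alveolar, airway, mesothelial and cardiac lists (12330 CPM for the type 2 list), while lung 3 lies among or near the primaries for most lists (520 CPM for the same list).

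The promoter of Sftpa1 is shown because it holds letters that a lung factor is known to bind. NKX2-1, the transcription factor that specifies lung epithelium, binds a core of the letters CAAGTG, and Nkx2-1 itself had 0.247 CPM in lung 3 and 36.2 CPM in lung 4, against at most 0.111 CPM in a primary. In the 250 bases before the start of mouse Sftpa1 (RefSeq, GRCm38.p6, chr14:41131538-41131787, plus strand) the core occurs at 2 places in reverse (CACTTG, in capitals), starting 202 and 14 bases before the gene start.
Sftpa1: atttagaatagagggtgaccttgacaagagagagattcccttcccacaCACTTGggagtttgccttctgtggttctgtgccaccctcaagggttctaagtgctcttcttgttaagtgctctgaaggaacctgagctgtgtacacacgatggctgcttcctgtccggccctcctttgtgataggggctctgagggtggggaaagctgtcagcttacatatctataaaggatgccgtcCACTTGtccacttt
The core was found on either strand in 2 of 13 type 2 genes with a promoter in the table, Sftpa1 and Lyz2, in 4 of 11 club cell genes, and in 11.6% of 32851 mouse promoters of the same length. The match describes these letters and no binding was measured.

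Type 1 cell genes had the same lean toward lung 4, but some were also above the primaries in lung 3. Ager, the receptor for advanced glycation end products and the classic type 1 marker, had 2.93 CPM in lung 3 and 382 CPM in lung 4, against 1.64, 2.16 and 2.64 CPM in the primaries (log2 6.50 ± 1.02, SE, edgeR adjusted p = 0.0808). Gprc5a, a retinoic acid-induced receptor of lung epithelium, had 1.79 CPM in lung 3 and 127 CPM in lung 4, against 0.0983, 0.461 and 1.04 CPM. Lung 3 exceeded the highest primary by a small margin for Ager and Gprc5a, and lung 4 by a very large one. Lmo7, a junction protein, had 79.5 CPM in lung 3 and 232 CPM in lung 4, against 24.1, 45.0 and 73.0 CPM. In all, 4 of 15 type 1 genes lay above the primaries in both lungs and 14 of 15 in lung 4. Cldn18, the lung claudin, had 0.0308 CPM in lung 3 and 258 CPM in lung 4, and Hopx had 0.431 CPM in lung 3, below its primary median of 0.978 CPM, and 126 CPM in lung 4.

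Airway genes followed lung 4. Scgb1a1, the secretoglobin of club cells, was at 0 in lung 3 and at 537 CPM in lung 4, against at most 3.25 CPM, in HP-9. Bpifa1, a secreted airway defence protein, was at 0 in lung 3 and at 512 CPM in lung 4. Aldh1a1, a retinaldehyde dehydrogenase, was the member of the club list in which both lungs exceeded every primary, with 6.38 CPM in lung 3 and 173 CPM in lung 4 against 0.273, 1.03 and 1.35 CPM (log2 6.67 ± 0.93, SE, edgeR adjusted p = 0.0799). Of the 6 club genes tested, 1 lay above the primaries in both lungs and 5 did so in lung 4. Among 7 tested genes of ciliated cells, 2 lay above in both lungs and 6 in lung 4. Sec14l3 had 0 CPM in lung 3 and 241 CPM in lung 4, and Tppp3 had 1.76 CPM in lung 3, under its lowest primary of 1.93 CPM, and 52.6 CPM in lung 4.

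Of 10 tested genes of mesothelium, the lining of the pleura, 6 exceeded the primaries in both lungs. The expression filter kept a gene near 0 in all primaries only if both lungs held it. Lrrn4, Msln, Upk3b and Wt1 were such genes, so this count is partly set by the filter. The same limit holds for such genes in the other lists. Msln, mesothelin, had 0.401 CPM in lung 3 and 87.1 CPM in lung 4 and was at or under 0.0237 CPM in the 6 primaries. Upk3b had 0.616 CPM in lung 3 and 60.8 CPM in lung 4, against at most 0.037 CPM, and Lrrn4 had 0.709 and 24.3 CPM while every primary was at 0. Wt1, the mesothelial transcription factor, had 0.493 CPM in lung 3 and 4.82 CPM in lung 4, against at most 0.0234 CPM. Levels in lung 3 stayed below 1 CPM for all of these genes, but each was above the primaries. Both the lowest adjusted p-values of the list were 0.0644 by edgeR, for Wt1 and Msln. Upk1b and Aldh1a2 had the same form, with 0.462 and 0.555 CPM in lung 3 and 21.6 and 18.8 CPM in lung 4.

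A few lung mesenchyme genes also lay above the primaries in both lungs, at low levels in lung 3. Tbx5, the transcription factor of lung and heart mesenchyme, had 0.770 CPM in lung 3 and 16.8 CPM in lung 4, against 0, 0.0286 and 0.0655 CPM in the primaries (log2 8.34 ± 1.11, SE, edgeR adjusted p = 0.0651). Foxf1, which directs the lung capillary and stroma, had 1.14 CPM in lung 3 and 30.3 CPM in lung 4, against 0.0655, 0.241 and 0.538 CPM. Gata6, a factor of lung endoderm and of heart, had 0.493 CPM in lung 3 and 19.1 CPM in lung 4, against 0.0739, 0.224 and 0.463 CPM. In lung 3 these 3 genes were at 1.14 CPM or less, yet above every primary. Of 12 mesenchyme genes tested 3 lay above in both lungs and 9 in lung 4, and in lung 3 alone 2 lay below. Of 15 lung capillary genes 1 lay above in both lungs, Foxf1 again, and 10 in lung 4. The list summed to 199 CPM in lung 3 and 1096 CPM in lung 4, against 257 to 561 CPM in the primaries. Lung 3 thus lay below all primaries on this sum. The list includes Kit and Ednrb, which are also in the melanocyte lineage list, so the sum does not measure capillary RNA alone. Itga8, an integrin of lung stroma, had 4.87 CPM in lung 3 and 44.0 CPM in lung 4, against 0.427, 0.788 and 4.03 CPM.

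General endothelial genes were the vascular group with sizeable levels in both lungs. Vwf, the von Willebrand factor, had 60.9 CPM in lung 3 and 307 CPM in lung 4, against 21.1, 26.8 and 31.6 CPM in the primaries (log2 2.79 ± 0.42, SE, edgeR adjusted p = 0.0808). Ptprb, the vascular endothelial phosphatase, had 55.7 CPM in lung 3 and 431 CPM in lung 4, against 20.2, 34.7 and 45.3 CPM. Esam, an endothelial adhesion molecule, had 152 CPM in lung 3 and 104 CPM in lung 4, against 16.8, 57.1 and 68.9 CPM, and so was higher in lung 3 than in lung 4. In total 3 of 18 endothelial genes lay above the primaries in both lungs and 17 of 18 in lung 4. The pan-endothelial Pecam1 and Cdh5 lay within the primaries in lung 3, at 25.1 and 32.3 CPM, and above them in lung 4, at 170 and 170 CPM, against highest primaries of 55.0 and 80.1 CPM. Acta2, the actin of smooth muscle, had 14.7 CPM in lung 3 and 33.9 CPM in lung 4, against 2.94, 6.88 and 11.2 CPM, and Myh11, the smooth muscle myosin, had 4.35 and 32.6 CPM, against 1.87, 2.56 and 4.19 CPM.

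Lung 4 also held heart muscle genes, which were at or near 0 in lung 3. Myh6, the atrial myosin heavy chain, was at 0 in lung 3 and at 393 CPM in lung 4, against at most 0.222 CPM in the primaries. Actc1, cardiac actin, was at 0 in lung 3 and at 151 CPM in lung 4, and Nppa, which encodes atrial natriuretic peptide, was at 0 in lung 3 and all primaries and at 77.3 CPM in lung 4. None of the 7 tested cardiac genes lay above the primaries in both lungs, and 6 did so in lung 4. Tnnt2, cardiac troponin T, had 0.401 CPM in lung 3 and 52.1 CPM in lung 4, against 0.131, 0.333 and 0.610 CPM. In mice the pulmonary veins carry a sleeve of cardiac muscle. Of 14 skeletal muscle genes, 1 lay above the primaries in lung 4 and 0 in lung 3.

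Blood and immune genes split the lungs in another way. Macrophage genes were higher in both lungs than in any primary for 5 of 13 members, beside 4.64% of all genes. Mrc1, the mannose receptor, had 37.2 CPM in lung 3 and 98.3 CPM in lung 4, against 5.99, 17.5 and 25.5 CPM in the primaries, and C1qb, a complement subunit, had 57.4 and 52.4 CPM, against 6.59, 36.3 and 47.1 CPM. Adgre1, which encodes F4/80, had 22.7 CPM in lung 3 and 31.5 CPM in lung 4, against 4.65, 15.2 and 19.2 CPM. The lungs lay close together on C1qb and Adgre1. The direction depends on the primaries used: with all 7 HPN primaries and animal number as a block, the log2 differences of Mrc1, C1qb and Adgre1 were -0.25, -1.02 and -0.84, and without the block those of C1qb and Adgre1 were -0.25 and -0.35. Genes of alveolar macrophages in the strict sense were in lung 4: Chil3 had 0.863 CPM in lung 3 and 614 CPM in lung 4, against 0.197, 0.973 and 2.81 CPM. The endosomal RNA sensors Tlr7 and Tlr8, found on myeloid and B cells, were above the primaries in both lungs, with 8.63 and 7.15 CPM in lung 3 and 14.7 and 20 CPM in lung 4, against highest primaries of 4.23 and 4.44 CPM.

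Lymphocyte and antigen presentation genes exceeded the primaries in lung 4 alone of the lungs. MHC class II genes were above the primaries in 9 of 9 members in lung 4 and in 0 of 9 in both lungs, with a sum of 48.7 CPM in lung 3 and 539 CPM in lung 4, against 18.2, 46.4 and 161 CPM in the primaries. B cell genes summed to 5.30 CPM in lung 3 and 30.2 CPM in lung 4, against 2.88 to 18.7 CPM, and T cell genes to 27.1 and 56.8 CPM, against 19.5 to 55.9 CPM. Erythroid genes stood higher in lung 3. Alas2, the haem synthesis enzyme of red cell precursors, had 269 CPM in lung 3 and 24.8 CPM in lung 4, against 1.8, 29.3 and 85.5 CPM, and Hba-a1, alpha globin, had 619 and 88.0 CPM, against 6.66, 113 and 266 CPM. In all, 8 of 10 erythroid genes lay above the primaries in lung 3, 2 in lung 4 and 1 in both. The last was Itga2b, the platelet integrin, with 5.21 CPM in lung 3 and 10.7 CPM in lung 4 against 1.08, 1.57 and 4.72 CPM.

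**Figure D2:**
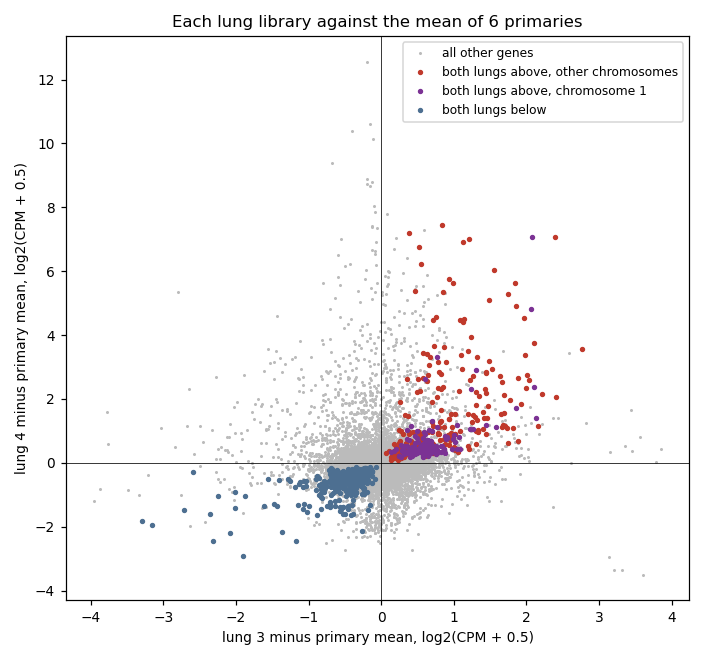
Each point is a protein-coding gene averaging at least 5 CPM over the 8 libraries, with its log2(CPM + 0.5) minus the mean of the 6 primaries in lung 3 on the horizontal axis and in lung 4 on the vertical axis. Points far up the vertical axis at lung 3 values near 0 are genes high in lung 4 alone of the lungs (Sftpc, 0.185 CPM in lung 3 and 4690 CPM in lung 4). Coloured points are genes above (chromosome 1 shown apart) or below all 6 primaries in both lungs. The counts of 782 above and 593 below cover all genes tested, so fewer are drawn.

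The gap between the lungs was one-sided. Among 8151 genes with at least 20 CPM in a lung, 488 were over 4-fold higher in lung 4 and 69 in lung 3, and 212 against 4 differed over 16-fold. The 4 that led in lung 3 were Y-linked, Ddx3y at 92.7 CPM in lung 3 and 0.173 CPM in lung 4, with Uty, Eif2s3y and Kdm5d, while Xist had 0.123 CPM in lung 3 and 1190 CPM in lung 4. The 2 lungs therefore differ in the expression of sex-linked genes, and so do the primaries, where Ddx3y ran between 0.0178 and 108 CPM. Among the 458 genes at 5 CPM or more that were above the primaries in both lungs, 337 were within 2-fold between lungs and 81 were over 4 times higher in lung 4. Among 442 such genes below the primaries in both, 421 were within 2-fold. Genes chosen for lying on the same side in both lungs are in part alike by that choice.

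Rbm20, a splicing regulator best known in heart muscle, had the smallest p of all genes. Its level was 5.27 CPM in lung 3 and 7 CPM in lung 4, against 0.0889, 0.187 and 0.328 CPM in the primaries (log2 4.95 ± 0.51, SE, edgeR adjusted p = 0.0629). The cardiac genes Myh6 and Actc1 were at 0 in lung 3, and the source of Rbm20 RNA was not tested. Slc10a6, a transporter of sulphated steroids, had 8.20 CPM in lung 3 and 8.39 CPM in lung 4, against 0.273, 0.445 and 1.01 CPM (log2 3.97 ± 0.51, SE, edgeR adjusted p = 0.0644). The lungs were close together on both genes and clear of the highest of the 6 primaries. On a scaling over all 23 libraries, both genes were lower in every keratinocyte-poor primary than in any of the 8 richer ones. Rbm20 ran from 0.0969 to 0.348 CPM against 0.71 to 3.98 CPM, and Slc10a6 from 0.299 to 1.09 CPM against 2.23 to 15.7 CPM. Their gap and p-values thus depend in part on the rule that chose the primaries. Arap3, a GTPase regulator of endothelium, had 33.8 CPM in lung 3 and 62.1 CPM in lung 4, against 6.77, 10.7 and 14.3 CPM (log2 2.19 ± 0.29, SE, edgeR adjusted p = 0.0644). Vcam1, the vascular cell adhesion molecule that binds integrin on leukocytes, had 7.12 CPM in lung 3 and 17.5 CPM in lung 4, against 1.66, 2.61 and 2.93 CPM. Osmr, the oncostatin M receptor, had 223 CPM in lung 3 and 177 CPM in lung 4, against 60, 90.3 and 114 CPM (log2 1.15 ± 0.24, SE, edgeR adjusted p = 0.0931). Jak3, a cytokine receptor kinase, had 20.3 CPM in lung 3 and 23 CPM in lung 4, against 4.27, 7.69 and 9.89 CPM. None of these passed the test at 0.05.

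The genes of largest gap above the primaries, among those averaging at least 5 CPM in the lungs, were led by the mesothelial Lrrn4, Msln and Upk3b. Leaving out all genes of the lung, vessel, muscle, mesothelium and skin lists, Rbm20 and Slc10a6 led. Both were lower in the 6 primaries compared here than in any of the 8 richer ones, as given above. The genes given next had higher levels in lung 4 than in lung 3. Mal, a membrane raft protein, had 3.61 CPM in lung 3 and 11.1 CPM in lung 4, against 0.0178, 0.0857 and 0.772 CPM in the primaries. Acer2, an alkaline ceramidase, had 8.07 CPM in lung 3 and 98.7 CPM in lung 4, against 1.40, 2.07 and 2.95 CPM. Shroom3, which shapes epithelial cells, had 5.61 CPM in lung 3 and 83.0 CPM in lung 4, against 0.534, 1.26 and 2.11 CPM. On these 3 genes lung 3 cleared the primaries by a few fold and lung 4 by more. Ptgis, prostacyclin synthase, had 1.02 and 30.6 CPM in lung 3 and lung 4, against at most 0.261 CPM, and Fmo2, the pulmonary flavin monooxygenase, had 11 and 368 CPM, against 1, 2.53 and 4.82 CPM. Nckap5, on chromosome 1, had 4.25 and 31.6 CPM, against 0.0702, 0.701 and 1.48 CPM. The other 4 genes of this group were below 0.5 CPM in lung 3: Fam107a at 0.370 CPM in lung 3 and 10.1 CPM in lung 4, Bmp5 at 0.493 and 14.2 CPM, Lrp2 at 0.308 and 59.9 CPM, and Mylk4 at 0.462 and 14.2 CPM, with highest primaries of 0.0983, 0.142, 0.129 and 0.196 CPM.

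Genes higher in both lungs were concentrated on 1 chromosome. Of 944 tested genes of mouse chromosome 1, 184 (19.5%) were above all 6 primaries in both lungs and 1 (0.106%) was below. The other 19 chromosomes together had 567 of 15160 above (3.74%) and 569 below (3.75%), and each of them had between 2.39% and 5.34% above. Chromosome 1 thus held 23.5% of the 782 genes. This pattern was noticed after the values were seen and is given as a description with no test.

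**Figure D3:**
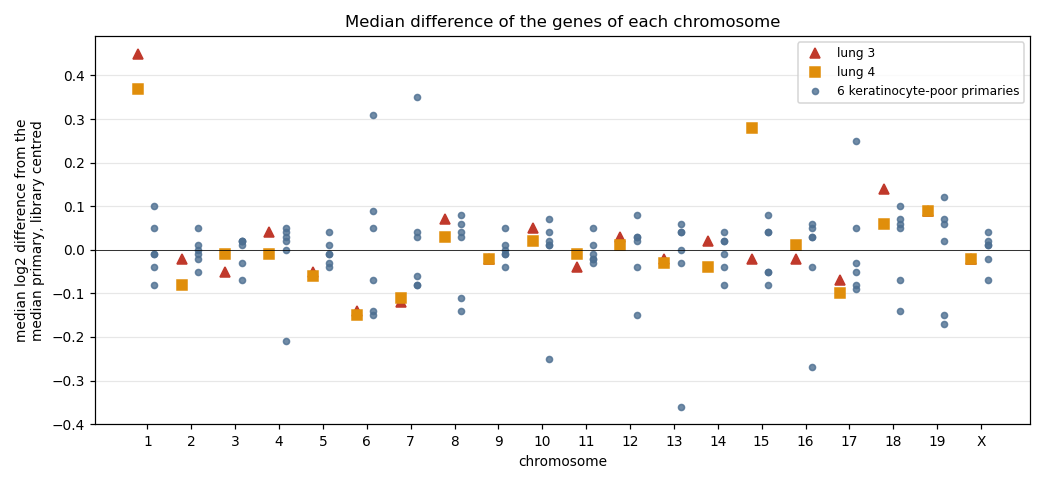
Median log2 difference from the median primary of the protein-coding genes of each chromosome, with lung 3 and lung 4 beside the 6 primaries; each library is centred on its own median gene. On chromosome 1 the lungs lie at 0.45 and 0.37 and the 6 primaries between -0.08 and 0.10.

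The shift was small per gene and even along the chromosome. Over 606 protein-coding genes of chromosome 1 with at least 10 CPM on average, the median log2 difference from the median primary was 0.45 in lung 3 and 0.37 in lung 4, against -0.08 to 0.10 in the 6 primaries. It was above 0 for 534 of the 606 genes (88.1%) in lung 3 and for 507 (83.7%) in lung 4. In 5 successive blocks of neighbouring genes the median was 0.49, 0.44, 0.49, 0.47 and 0.39 in lung 3 and 0.36, 0.37, 0.34, 0.45 and 0.36 in lung 4. The blocks of a lung differed little. Elsewhere in the genome lung 3 lay between -0.14 and 0.14 and lung 4 between -0.15 and 0.28, the highest being chromosome 15. Single primaries reached further on other chromosomes, from -0.36 on chromosome 13 in HPN-5 to 0.35 on chromosome 7 in HPN-7.

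Some other libraries shared the chromosome 1 shift. The lymph node metastasis of animal 4 had a median of 0.34 and that of animal 3 had -0.01, within a range of -0.05 to 0.34 over the nodes. The keratinocyte-rich primary of animal 3 stood at 0.24 and that of animal 4 at 0.08. In animal 4, lung and node were thus alike and the primary was near the other primaries, whereas in animal 3 lung and primary both stood above 0 and the node did not. No DNA data were used here.

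The chromosome 1 genes given next were chosen among those above the primaries in both lungs, so they do not show how even the difference was. Nek7, a mitotic kinase that also serves the inflammasome, had 241 CPM in lung 3 and 233 CPM in lung 4, against 121, 173 and 194 CPM in the primaries. Adipor1, the adiponectin receptor, had 261 CPM in lung 3 and 252 CPM in lung 4, against 136, 159 and 203 CPM. Bmpr2, the type 2 receptor for bone morphogenetic proteins, had 196 CPM in lung 3 and 256 CPM in lung 4, against 102, 134 and 154 CPM. Each was higher in both lungs by less than 2-fold over the median primary. Ndufs1 and Sdhc, subunits of respiratory complexes I and II, had 169 and 150 CPM in lung 3 and 127 and 137 CPM in lung 4, against highest primaries of 111 and 111 CPM. Atp2b4, a calcium pump of the plasma membrane, had 973 CPM in lung 3 and 745 CPM in lung 4, against 520, 595 and 651 CPM. Genes described in other paragraphs, among them Per2, Glul, Btg2, Nme7, Fmo2, Chil1, Tnnt2, Nckap5 and Shisa4, also lie on chromosome 1. Of these, Fmo2, Chil1, Tnnt2 and Nckap5 had much higher levels in lung 4 than in lung 3. Chromosome 1 genes are left out of no other count, and 62 of the 149 genes above all 14 primaries lie on it.

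Some known targets of the glucocorticoid receptor, a steroid hormone receptor that acts as a transcription factor, lay above the primaries in both lungs. Of 24 genes in a list drawn up after the values were seen, 9 lay above the primaries in both lungs and 0 below in both, while 1 lay below in lung 3 and 2 in lung 4, with a median log2 of 1.28, beside -0.02 over all genes, and the choice of list supports nothing by itself. Fkbp5, a chaperone of the receptor and one of its best known targets, had 177 CPM in lung 3 and 106 CPM in lung 4, against 36.6, 52.1 and 66.7 CPM in the primaries (log2 1.48 ± 0.27, SE, edgeR adjusted p = 0.0808). Klf9 had 251 CPM in lung 3 and 116 CPM in lung 4, against 58.4, 79.3 and 88.8 CPM (log2 1.28 ± 0.27, SE, edgeR adjusted p = 0.0931). Zbtb16 had 15.8 CPM in lung 3 and 98.1 CPM in lung 4, against 1.20, 3.52 and 11.2 CPM. For Fkbp5 and Klf9 lung 3 was the higher lung, and for Zbtb16 it was lung 4. Pdk4, the kinase that restrains pyruvate dehydrogenase, had 17 CPM in lung 3 and 54.9 CPM in lung 4, against 1.22, 3.91 and 7.89 CPM. Glul, glutamine synthetase, had 659 and 571 CPM in lung 3 and lung 4, against 204, 236 and 491 CPM, and Cebpd had 38.9 and 48.3 CPM, against 6.45, 13.3 and 37.4 CPM. Tsc22d3, another classic target, was above the primaries in lung 4 at 144 CPM but not in lung 3 at 35.1 CPM, against 20.2, 24.8 and 37.1 CPM.

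Circadian clock genes, several of which glucocorticoids also control, were divided. Per2, a repressor of the clock, had 29.6 CPM in lung 3 and 35.8 CPM in lung 4, against 2.93, 6.57 and 10 CPM in the primaries (log2 2.25 ± 0.36, SE, edgeR adjusted p = 0.0808). Per1 was above the primaries in lung 3, at 308 CPM, but not in lung 4, at 85.8 CPM, against 51.7, 72.9 and 151 CPM. Bhlhe41, another repressor of the clock, was below them in both, with 345 CPM in lung 3 and 337 CPM in lung 4 against 365, 623 and 969 CPM. Of 20 clock genes, again listed after the values were seen, 3 lay above the primaries in both lungs and 1 below. Over all genes the shares were 4.64% above and 3.52% below. The labels give no hour of collection. Nr1d2, a nuclear receptor of the clock, had 135 CPM in lung 3 and 134 CPM in lung 4, against 51.1, 111 and 128 CPM.

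Pigment genes leaned lower in the lungs. All 18 pigmentation genes had a negative log2 difference, with a median of -0.51, and the list summed to 45380 CPM in lung 3 and 33480 CPM in lung 4, against 39760, 58610 and 73610 CPM in the primaries. No member passed the test. Pmel, which forms the fibrils of the melanosome, had 3500 CPM in lung 3 and 1990 CPM in lung 4, against 4890, 8780 and 14700 CPM (log2 -1.82 ± 0.51, SE, edgeR adjusted p = 0.195). Slc24a5, a cation exchanger of the melanosome, had 284 CPM in lung 3 and 222 CPM in lung 4, against 308, 576 and 823 CPM (log2 -1.22 ± 0.36, SE, edgeR adjusted p = 0.219). These 2 of 18 were the pigment genes below every primary in both lungs, beside 3.52% of all genes. Tyr, tyrosinase, had 2130 CPM in lung 3 and 1430 CPM in lung 4, against 1420, 2170 and 2720 CPM, and Tyrp1 had 8340 and 6680 CPM, against 7410, 11600 and 13100 CPM. Tyr lay within the primaries in both lungs. Lung 3 lay below the primaries in 4 of the 18 genes and lung 4 in 7. Of markers of other cells, 3 of 18 endothelial genes and 5 of 13 macrophage genes lay above the primaries in both lungs, among them Vwf and Mrc1. In lung 4 alone the counts were 17 and 10, while most members of both lists lay within the primaries in lung 3. The part of other cells in the pigment values was not tested. The direction depends on the primaries used: in a fit of all 7 HPN primaries with animal number as a block, which sets each lung against the keratinocyte-rich primary of its own number, Tyr, Tyrp1 and Dct stood 0.70, 0.32 and 0.19 higher in the lungs on the log2 scale.

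The promoters of Slc24a5 and Tyr carry the M-box TCATGTG, the letters that MITF binds in pigment genes. In the 250 bases before the gene start (RefSeq, GRCm38.p6) it lies in reverse (CACATGA) 13 bases before the start of Slc24a5 (chr2:125067877-125068126, plus strand) and in the forward sense 22 bases before that of Tyr (chr7:87493513-87493762, minus strand), in capitals in both.
Slc24a5: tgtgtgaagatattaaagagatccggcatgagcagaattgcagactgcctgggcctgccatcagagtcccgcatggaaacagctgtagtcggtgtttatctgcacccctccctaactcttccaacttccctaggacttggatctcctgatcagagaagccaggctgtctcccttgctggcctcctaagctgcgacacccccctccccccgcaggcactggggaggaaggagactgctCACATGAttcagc
Tyr: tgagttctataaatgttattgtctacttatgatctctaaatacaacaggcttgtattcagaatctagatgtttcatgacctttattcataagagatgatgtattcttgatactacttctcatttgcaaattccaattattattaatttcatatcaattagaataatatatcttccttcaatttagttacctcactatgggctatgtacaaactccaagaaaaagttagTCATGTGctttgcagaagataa
On either strand the M-box was found in 6 of the 13 pigmentation genes with a promoter in the table, Dct, Mc1r, Slc24a5, Trpm1, Tyr and Tyrp1, and in 3.25% of 32851 mouse promoters of that length. It was found in 0 of 13 type 2 cell genes and 2 of 11 club cell genes. Of the 6 genes that hold it, Slc24a5 was the 1 below all primaries in both lungs.

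Regulators of the melanocyte lineage held 3 of 14 members below the primaries in both lungs and 0 above, beside 3.52% and 4.64% of all genes. Cdk2, a cell cycle kinase under MITF control in melanocytes, had 410 CPM in lung 3 and 250 CPM in lung 4, against 487, 669 and 809 CPM in the primaries. Tfap2a, a transcription factor of neural crest and melanocytes, had 149 CPM in lung 3 and 79.1 CPM in lung 4, against 161, 196 and 277 CPM. Met, the receptor for hepatocyte growth factor, had 1080 CPM in lung 3 and 889 CPM in lung 4, against 1200, 1530 and 1940 CPM. Mitf itself had 574 CPM in lung 3, below every primary, and 746 CPM in lung 4, within them, against 623, 829 and 1480 CPM. Hgf, the ligand of Met, had 656 CPM in lung 3 and 189 CPM in lung 4, against 219, 258 and 301 CPM, so that lung 3 lay above and lung 4 below the primaries.

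Some replication-dependent histone genes lay below the primaries in both lungs, and most did so in lung 4. Hist1h2bf, a histone H2B gene, had 4.38 CPM in lung 3 and 4.06 CPM in lung 4, against 15.4, 20.9 and 24.1 CPM in the primaries (log2 -2.27 ± 0.27, SE, edgeR adjusted p = 0.0644). Hist1h4h had 85.5 CPM in lung 3 and 73.2 CPM in lung 4, against 118, 128 and 148 CPM, and Hist1h3b had 20.7 and 13.6 CPM, against 26.9, 31.2 and 36.5 CPM. Of 49 tested genes in a histone list drawn up after the values were seen, 8 lay below the primaries in both lungs, 11 in lung 3 and 42 in lung 4, and 3 lay above in lung 3. The list summed to 2129 CPM in lung 3, within the 2004 to 3023 CPM of the primaries, and to 1101 CPM in lung 4. These genes belong to families of near-identical copies, so reads may be split among them, and most of their RNA lacks a poly(A) tail, while the labels do not state how RNA was selected. Cell cycle genes were low in lung 4 as well: all 16 lay below the primaries in lung 4 and 0 in lung 3. Mki67, a marker of dividing cells, had 313 CPM in lung 3 and 55.2 CPM in lung 4, against 177, 362 and 458 CPM, and Top2a had 199 and 46.4 CPM, against 145, 200 and 256 CPM. Lung 3 thus sat among the primaries on the cell cycle list, at a sum of 1285 CPM, and below them on Hist1h2bf.

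Targets of p53, the tumour suppressor that answers DNA damage, lay on both sides of the primaries. Of 25 genes listed after the values were seen, 5 lay below the primaries in both lungs and 2 above. Over all genes 3.52% lay below and 4.64% above. Bax, the mitochondrial death effector, had 43.8 CPM in lung 3 and 49.6 CPM in lung 4, against 67.6, 75.4 and 103 CPM in the primaries (log2 -0.75 ± 0.20, SE, edgeR adjusted p = 0.165). Aen, an apoptosis nuclease, had 18.3 CPM in lung 3 and 23 CPM in lung 4, against 28.2, 40.5 and 51.1 CPM. Zmat3, an RNA-binding target, had 123 CPM in lung 3 and 110 CPM in lung 4, against 150, 222 and 330 CPM, and Eda2r had 8.66 and 9.85 CPM, against 13.8, 23.4 and 47.6 CPM. Psrc1, a spindle gene, was the fifth, with 14.3 and 6.76 CPM against 19.8, 50.6 and 156 CPM. The lungs were close together on the first 4 of these genes. Above the primaries lay Btg2, an antiproliferative gene on chromosome 1, with 32.4 CPM in lung 3 and 69.0 CPM in lung 4 against 9.05, 15.3 and 17.6 CPM, and Sesn1, a stress-induced inhibitor of mTORC1, with 52.4 and 30.2 CPM against 18, 22.8 and 25.8 CPM. Cdkn1a, the p21 gene, and Mdm2, the p53 ligase, lay within the primaries in both lungs, Cdkn1a at 151 and 149 CPM against 106, 230 and 303 CPM.

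Outputs of the MAPK pathway, which melanomas activate, were lower in both lungs for 3 of 16 members, beside 3.52% of all genes. Ccnd1, cyclin D1, had 754 CPM in lung 3 and 753 CPM in lung 4, against 944, 1090 and 2030 CPM in the primaries. Phlda1 had 216 CPM in lung 3 and 237 CPM in lung 4, against 315, 348 and 555 CPM, and Dusp4, a phosphatase that turns the pathway off, had 172 and 151 CPM, against 185, 239 and 329 CPM. The member above the primaries in both lungs was Epha2, an ephrin receptor also of lung epithelium, with 6.50 CPM in lung 3 and 24.2 CPM in lung 4 against 1.59, 2.61 and 4.58 CPM (edgeR adjusted p = 0.0907). Over the list the median log2 was -0.06, near the -0.02 of all genes. With all 7 HPN primaries and animal number as a block, the log2 differences of Ccnd1 and Dusp4 were 0.93 and 0.06 and that of Epha2 was -0.85, each opposite in sign.

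Genes of invasion and of metastasis suppression lay on both sides of the primaries. Among 16 proteases and invasion genes, Plau, the urokinase plasminogen activator, had 6.04 CPM in lung 3 and 13.5 CPM in lung 4, against 14.8, 20 and 70.3 CPM in the primaries. Adam12, a metalloprotease, had 182 CPM in lung 3 and 121 CPM in lung 4, against 212, 339 and 399 CPM. These 2 lay below the primaries in both lungs and 0 of the 16 above, beside 3.52% and 4.64% of all genes. Of 13 genes known as metastasis suppressors 4 lay above the primaries in both lungs and 1 below, Cd44, the hyaluronan receptor, with 826 CPM in lung 3 and 812 CPM in lung 4 against 877, 989 and 1540 CPM. Gas1, a growth arrest gene, had 63.5 CPM in lung 3 and 31.1 CPM in lung 4, against 6.71, 17.4 and 22.8 CPM. Txnip, which restrains glucose uptake, had 391 CPM in lung 3 and 376 CPM in lung 4, against 128, 224 and 287 CPM, and Cd82, a tetraspanin, had 31.5 and 39.9 CPM, against 6.07, 14.8 and 29.4 CPM. Arhgdib, a gene abundant in blood cells, had 96.1 and 65.2 CPM, against 8.42, 35.0 and 62.5 CPM. With all 7 HPN primaries and animal number as a block the direction turned for Gas1, Cd82, Cd44 and Adam12, with log2 differences of -0.80, -0.15, 0.34 and 0.29.

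Several other lists held about as many members outside the primaries in both lungs as all genes do (4.64% above and 3.52% below), and nothing is read from them. Of 18 glycolysis and hypoxia genes, 0 lay outside the primaries in both lungs in either direction. Of 20 oxidative phosphorylation genes, 1 lay above, Ndufs1 on chromosome 1, and 0 below. Ribosomal protein genes had 0 of 25 outside the primaries in both lungs. Interferon response and immediate early genes had 0 of 16 each.

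Some Hox genes, which record body position, had lower levels in the lungs, and so had Ebf3. Ebf3, a transcription factor of mesoderm and muscle outside the position list, had 0.0616 CPM in lung 3 and 0.104 CPM in lung 4, against 0.634, 1.31 and 2.07 CPM in the primaries (log2 -3.96 ± 0.72, SE, edgeR adjusted p = 0.0808). Hoxd8 had 0.185 CPM in lung 3 and 0.139 CPM in lung 4, against 0.734, 2.08 and 2.85 CPM (log2 -3.56 ± 0.70, SE, edgeR adjusted p = 0.0828), and Hoxd9 had 0.0925 and 0.208 CPM, against 0.267, 0.426 and 0.959 CPM. By counting error alone, a count of 0 allows up to 0.0925 CPM in lung 3 and 0.104 CPM in lung 4. Ebf3 was at or under that limit in both lungs, and Hoxd9 was at it in lung 3. Hoxa5, which lung mesenchyme expresses, was higher, with 0.678 CPM in lung 3 and 9.26 CPM in lung 4 against 0.0237, 0.115 and 0.249 CPM. Of 9 tested Hox and position genes, 2 lay below the primaries in both lungs and 1 above, beside 3.52% and 4.64% of all genes. Skin fibroblasts express Hox genes according to their position. Of 16 fibroblast matrix genes, 11 had a negative log2 difference, with a median of -0.59, and 4 lay below the primaries in lung 3. Their part in the Hox values was not tested.

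The genes with the largest gap below the primaries, among those averaging at least 5 CPM there, belonged to no single family. Klhl14 had 0.0616 CPM in lung 3 and 0.416 CPM in lung 4, against 1.41, 3.10 and 11.3 CPM in the primaries. Ano3, a member of the anoctamin family, had 0.801 CPM in lung 3 and 2.5 CPM in lung 4, against 5.54, 10.8 and 33.2 CPM. Thsd7a, a thrombospondin repeat protein, had 33.0 CPM in lung 3 and 13.2 CPM in lung 4, against 62.9, 74.6 and 90.4 CPM (log2 -1.71 ± 0.35, SE, edgeR adjusted p = 0.0907). All 3 were lower in both lungs than in any primary, and each was well under the median primary. Cdh10, a neural cadherin, had 4.99 CPM in lung 3 and 3.36 CPM in lung 4, against 7.50, 10.2 and 17.3 CPM. Mthfd2, a mitochondrial folate enzyme, had 10 and 8.42 CPM, against 14.6, 20.8 and 32.2 CPM, and Rnf157, a ubiquitin ligase, had 54.7 and 35.9 CPM, against 79.3, 97.9 and 112 CPM. Col11a1, a fibrillar collagen chain, had 0.154 and 1.32 CPM, against 2.40, 5.20 and 26.9 CPM, and Eps8, an actin regulator downstream of growth factor receptors, had 237 and 251 CPM, against 402, 516 and 1650 CPM. Pla2g2e, a secreted phospholipase, had 30.6 and 54.4 CPM, against 79.2, 101 and 218 CPM, and Art5, Hist1h2ad, Ankrd26, Gpr137c and Macrod2 completed the 15. Measured from the nearer lung to the nearest primary, 3 of 435 such genes lay below by 2-fold or more, and 32 of 456 lay above by that margin.

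**Figure D4:**
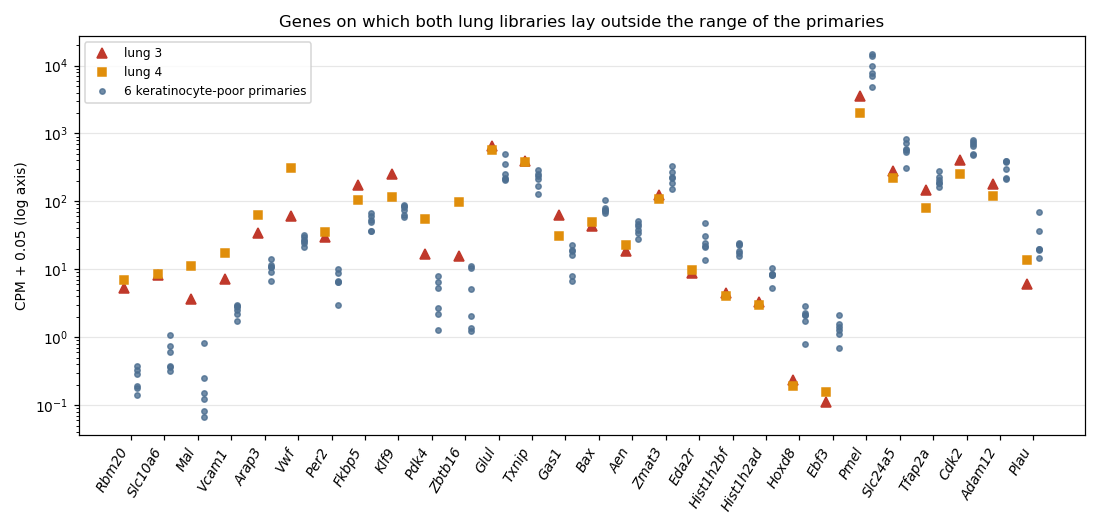
CPM, with 0.05 added, on a log10 axis for named genes on which both lungs lie outside the 6 primaries, with each library as a point. Lung 3 and lung 4 sit close together for Slc10a6 (8.20 and 8.39 CPM) and Hist1h2bf (4.38 and 4.06 CPM) and clear of every primary.

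The lymph node metastases and the keratinocyte-rich primaries show which of these levels were found in the lungs and in no other library. On a scaling over all 23 libraries, both lungs lay above all 14 primaries in 149 genes (0.884%) and below in 87 (0.516%), and above all 21 other libraries in 81 genes (0.48%) and below in 42 (0.249%). Both lungs lay above all 7 nodes in 1680 genes (9.96%) and below in 1859 (11%), of which 242 and 122 lay on the same side of the 6 primaries. Rbm20 had 5.50 CPM in lung 3 and 6.97 CPM in lung 4, against 0.22 to 0.918 CPM in the nodes and 0.710 to 3.98 CPM in the keratinocyte-rich primaries. Per2 had 30.9 and 35.6 CPM, against 8.42 to 17.4 CPM in the nodes and 2.34 to 18 CPM in the keratinocyte-rich primaries. Both genes were above every other library. Slc10a6 was not: it had 8.56 CPM in lung 3 and 8.35 CPM in lung 4, against 10.5 and 5.64 CPM in the richer primaries HPN-3 and HPN-4 and 8.96 and 2.45 CPM in the nodes of animals 3 and 4. Fkbp5 had 185 CPM in lung 3 and 105 CPM in lung 4, against 51.4 to 175 CPM in the nodes. Its level in the node of animal 3 was 147 CPM and in that of animal 4 it was 65.8 CPM.

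**Figure D5:**
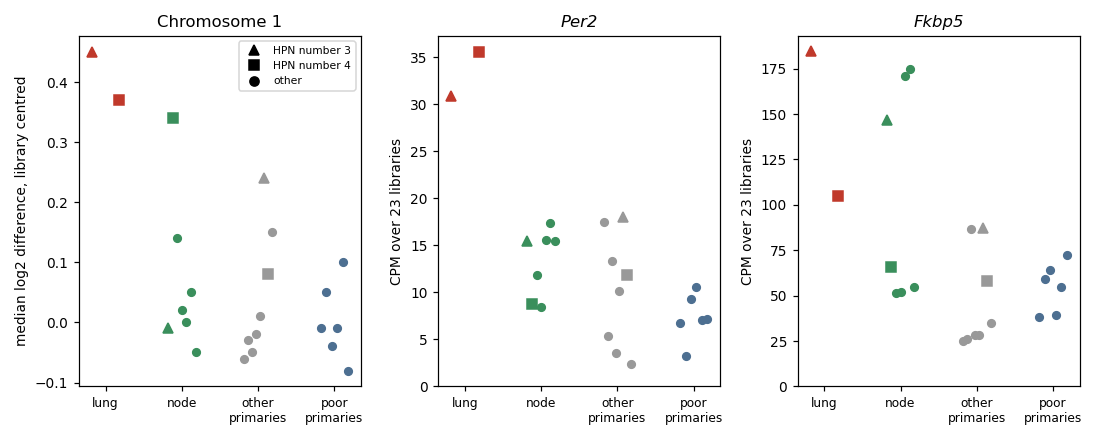
Each point is a library, in columns of lungs, nodes, keratinocyte-rich (other) primaries and the 6 keratinocyte-poor primaries, with the libraries of animals 3 and 4 as triangles and squares. The panels plot the chromosome 1 median (lungs at 0.45 and 0.37), Per2 in CPM scaled over 23 libraries (lungs at 30.9 and 35.6 CPM, above all others) and Fkbp5 on the same scale (lungs at 185 and 105 CPM, nodes at 51.4 to 175 CPM).

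Pmel was lower in both lungs, at 3650 and 1980 CPM, than in the richer primaries of the same animals, at 7320 and 5650 CPM, and than in the nodes of the same animals, at 7820 and 7740 CPM, but the nodes as a whole ran from 770 to 7820 CPM. Hist1h2bf had 4.57 CPM in lung 3 and 4.04 CPM in lung 4, against 2.95 CPM in the richer primary HPN-3 and 9.55 CPM in HPN-4. Its low level was thus shared by the primary of animal 3. Other genes above all 21 libraries in both lungs, at 5 CPM or more, included Kcnj12, a potassium channel, at 28.6 and 27.9 CPM in lung 3 and lung 4 against 0.0468, 9.04 and 17.5 CPM in the 6 primaries, and Shisa4, on chromosome 1, at 63.4 and 70.8 CPM against 25.9, 29.1 and 43.7 CPM. Rcan2, a calcineurin regulator, had 23.7 and 41.0 CPM, against 0.538, 7.79 and 16.1 CPM, and Cdhr2, a protocadherin of brush borders, had 44.1 and 34.6 CPM, against 1.59, 7.94 and 22.8 CPM. Plau was the protein-coding gene with the largest gap below all 21.

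Between lungs and nodes edgeR called 654 genes higher (3.55%) and 1093 lower (5.93%) of 18440 in a fit without animal number. With the animal number as a block the calls were 0 and 0, so these values serve only as a guide. Rbm20 was higher in the lungs than in the nodes by a log2 of 3.84 (edgeR adjusted p = 0.00541) and Per2 by 1.40 (edgeR adjusted p = 0.0294). Msln and Tbx5 were higher by 9.20 and 5.59 (edgeR adjusted p = 0.00369 and 0.00823), and Osmr by 0.92 (edgeR adjusted p = 0.0453). Scaled over all libraries of the series, Msln had 0.418 CPM in lung 3 and 86.7 CPM in lung 4, against at most 0.185 CPM in any other library. The expression filter keeps such a gene only if both lungs hold it, so its p-value depends in part on the filter. Tbx5 reached at most 0.405 CPM in any other library, and whether the same limit holds for it was not tested. Hoxd8 and Ebf3 were lower by a log2 of -5.32 and -6.84 (edgeR adjusted p = 0.00541 and 0.00369), and Thsd7a by -1.41 (edgeR adjusted p = 0.0359). Vcam1, above the primaries, was below the nodes, at a log2 of -3.35 (edgeR adjusted p = 0.0244). Slc10a6 and Fkbp5 did not pass, with adjusted p-values of 0.955 and 0.355 by edgeR. Without lung 3 the counts were 780 higher and 113 lower, and without lung 4 they were 63 and 346.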

How the data were processed

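Per the labels' protocols, RNA was extracted with the AllPrep Mini kit and libraries were made with a directional NEBNext Ultra II kit. The submitters' processing notes name bcl2fastq 1.8.4, STAR 2.5.3a and the mouse build mm9. The authors deposited whole-number read counts per gene, 1 file per sample, with 37620 Ensembl gene identifiers, of which 87.45% had a symbol in the annotation used here. The counting tool, its strand setting and its annotation are named neither by the labels nor by the files, so reads of antisense or overlapping genes may be shared. The 5 summary entries that name no gene were left out of library sizes and tests. Promoter sequences are RefSeq's for GRCm38.p6, matched by symbol, and chromosomes and gene order are those of the GENCODE annotation of GRCm38, matched by identifier, so no coordinate of the files was converted.

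Counts of the 2 lungs and 6 primaries were filtered with filterByExpr, scaled by TMM and fitted with the robust quasi-likelihood test of edgeR 4.0.16 in R 4.3.3, with p-values adjusted by Benjamini and Hochberg across all 16862 genes of the fit and called at 0.05. A gene was counted as outside the primaries where the scaled CPM of both lungs lay above the highest or below the lowest of the 6. DESeq2 1.42.0, limma 3.58.1 (voom), other filters, scalings and sets of primaries, and leaving out each library were tried. The procedure was tested on simulated data. P-values measure the spread between these libraries only, and the common biological coefficient of variation was 0.495. The chromosome medians use protein-coding genes with a mean of at least 10 CPM over 23 libraries, a pseudocount of 0.5 CPM and a centring of each library on its median gene.

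The libraries compared and the gene lists were chosen with earlier results of these data known. The p53, clock, glucocorticoid and histone lists were drawn up after the values were seen. Genes were to be named by fold change among genes past the threshold. Because 0 passed, the 15 protein-coding genes per direction with the largest gap between the nearer lung and the nearest primary, with at least 5 CPM on average in the higher group, were named instead, and likewise the 15 above the primaries that are in none of the lung, vessel, muscle, mesothelium and skin lists. That rule and all other named genes were chosen after the values were seen, except the 2 of smallest p per list, and a few single genes are not reported here. The numbers 3 and 4 of the lungs occur in no primary of the main comparison, so nothing there is paired.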

Additional observations from a re-analysis of the deposited data

Results flagged for a closer look

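In 15 of 155 results tested over the 6 primaries, the highest or lowest primary stood apart, with a gap to its nearest neighbour, as a share of the group's range, above Dixon's critical value for 6 samples. Chance alone flags about 1 in 20 such groups. For genes the share was taken on log2 CPM with 0.1 CPM added.

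HPN-7 was the primary that stood apart most often. It was the lowest primary for C1qb (share 0.706), with 6.59 CPM against 26.5 CPM in the next, for Esam (0.627), with 16.8 CPM against 40.7 CPM, and for Kcnj12 (0.689), with 0.0468 CPM against 3.87 CPM. The same held for Rcan2 (0.724), with 0.538 CPM against 6.54 CPM, and Hist1h2ad (0.645), with 5.21 CPM against 8.09 CPM. It was the highest for the club cell list (0.679) at 101 CPM, of which Hp made up 97.1 CPM, for the lung capillary list (0.657) at 561 CPM and for the mesothelium list (0.671) at 134 CPM, of which Gpm6a made up 133 CPM. Per2 was lowest in HP-7 (0.63), with 2.93 CPM against 6.37 CPM in the next primary, and hair follicle genes were highest in HPN-2 (0.763), where Tchh made up 37.8 of 90.2 CPM.

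Single primaries also stood apart on whole chromosomes, given as the median log2 difference from the median primary. HPN-2 was low on chromosome 4 (share 0.808) at -0.21 and on chromosome 10 (0.812) at -0.25. HPN-5 was low on chromosome 13 (0.786) at -0.36 and on chromosome 16 (0.697) at -0.27. HPN-7 was high on chromosome 7 (0.721) at 0.35. On chromosome 1, where both lungs were high, no primary stood apart by this measure.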

How the results depend on the processing

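The precision of the comparison is limited by 2 lung libraries that differ greatly from each other. Calls of higher genes numbered 0 by edgeR, 475 by DESeq2, 2 by limma voom, 5 with no filter, 1 (Tfpi) with genotype as a term, 556 in 1 fit over lung, node and primaries, and 0 to 1228 when each library was left out in turn. Calls of lower genes numbered 0, with 54 by DESeq2, 1 with no filter, 10 in the 1 fit over all 3 sites, and 0 to 161 when each library was left out. Both extremes came without lung 3. Genes above the primaries in both lungs numbered 782, against 1203 with no filter, 1689 with the 3 HPN primaries alone, 1843 with the 3 primaries free of low-quality reads and 491 with all 7 HPN primaries. Genes below numbered 593, against 1993, 2034 and 289 under the last 3 of these. The ranges of the 14 primaries, 7 nodes and 21 other libraries, and chromosome 1 counted apart, were added after seeing the data. Lung against node gave 63 to 780 higher and 113 to 346 lower genes when a lung was left out.

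No paired analysis was possible in the main comparison because the lungs share no number with its 6 primaries. With all 7 HPN primaries and the animal number as a replicate block, 5 genes were called higher (Sftpa1, Sftpb, Hbb-bs, Hbb-bt and Nalcn) and 47 lower, mostly keratinocyte genes, and for lung against node the block gave 0 and 0. Of the log2 differences of 127 named genes, 2281 values kept direction and side, 196 now passed the threshold and 36 reversed, 24 of them under this block. There the log2 differences were 0.85 for Hist1h2ad, 1.13 for Cdh10, -0.08 for Mylk4, 0.29 for Adam12, -0.84 for Adgre1, -1.02 for C1qb, 0.93 for Ccnd1, 0.34 for Cd44, -0.15 for Cd82, -0.39 for Ctsh, 0.19 for Dct, 0.06 for Dusp4, -0.85 for Epha2, -0.80 for Gas1, 0.03 for Hist1h3b, -0.01 for Jak3, 0.40 for Met, 0.28 for Mitf, -0.25 for Mrc1, 0.14 for Sox10, 0.14 for Top2a, -0.20 for Tsc22d3, 0.70 for Tyr and 0.32 for Tyrp1. The block compares each lung with a keratinocyte-rich primary, and the cause of the reversals was not tested.

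With all 7 HPN primaries and no block, Mylk4 stood at -0.06, Adgre1 at -0.35, C1qb at -0.25, Epha2 at -0.23, Mitf at 0.16 and Tyr at 0.31. With each library left out, Hgf ran from -0.51 to 1.31, the lowest without lung 3. Chil1 ran from -0.02 to 9.08, Chil3 from -0.60 to 8.84, Sec14l3 from -5.31 to 11.06, Tppp3 from -0.36 to 4.53 and Top2a from -2.11 to 0.01, each crossing 0 without lung 4.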

Other observations

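Adipocyte genes were also higher in lung 4 than in lung 3, with sums of 451 and 99.1 CPM. The Schwann cell list was not, with a sum of 1233 CPM in lung 3 and 1189 CPM in lung 4. The adipocyte list shares Fabp4, Lpl and Cidec with the alveolar macrophage list, so its sum does not measure adipocyte RNA alone. Plin1, which coats fat droplets, had 0.185 CPM in lung 3 and 7.97 CPM in lung 4, against 0.037, 0.15 and 0.462 CPM (lowest, median and highest) in the 6 primaries, and Adipoq, adiponectin, had 0.123 and 7.90 CPM, against 0.0185, 0.165 and 0.427 CPM. Prx, the myelin protein periaxin, which lung capillaries express as well, had 4.99 CPM in lung 3 and 90.3 CPM in lung 4, against 3.04, 4.42 and 8.34 CPM. Prx lay within the primaries in lung 3. Icam1, the intercellular adhesion molecule, had 5.61 CPM in lung 3 and 132 CPM in lung 4, against 3.44, 6.64 and 11.4 CPM, while Spp1, osteopontin, had 27.3 CPM in lung 3, below every primary, and 395 CPM in lung 4, within their 34.2 to 578 CPM.

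Rsad2, an interferon-induced antiviral gene, was the reverse, with 43.3 CPM in lung 3 and 6.59 CPM in lung 4, against 2.65, 7.43 and 19.6 CPM in the primaries. Thy1, a surface glycoprotein of fibroblasts and T cells, had 1.94 CPM in lung 3 and 3.95 CPM in lung 4, against 2.87, 11 and 13.6 CPM. Fn1, fibronectin, had 4350 CPM in lung 3 and 3550 CPM in lung 4, within the 758 to 9280 CPM of the primaries.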
